A study of Mus musculus with 12 samples.

Results

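Genes of fatty acid uptake, activation, carnitine transport, mitochondrial beta-oxidation and triglyceride turnover were followed in the mouse left ventricle across 3 models of cardiac stress. The list holds 33 gene symbols, taken by name from the platform annotation, with the brightest probe set (a group of array probes read as 1 value) standing for each gene. Of these, 31 had a probe set of their own among the 11624 genes tested, and all 31 passed the filter on dim genes. For Acsl1, the acyl-CoA synthetase that is the only activation enzyme of the list, no probe set was named here. The only probe set listed with Cpt1b, the muscle carnitine palmitoyltransferase, is shared by 3 genes, so Cpt1b is not analysed here either.

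Total RNA of the left ventricle of Balb/c mice, 6 to 8 weeks old and with no transgene or deletion named, was hybridised to 12 arrays. Transverse aortic constriction (TAC), which loads the ventricle with pressure, was sampled at 1 day, 1 week and 1 month, each with a sham-operated control of the same time. Coronary ligation (MI) was sampled at 1 week and 1 month, each with its own sham, and angiotensin II (Ang II, 2 mg/kg/day by pump) at 1 week with a vehicle control. Each of these 12 groups was 1 array, and whether it held 1 animal or a pool is not stated, so the spread comes from the 6 pairs of procedure and control alone. The labels place the 1 day harvest in TAC and name a ligation, whereas the series text places it in MI and describes a 30 min occlusion with reperfusion. All 14 cardiomyocyte markers read, such as Myh6 and Tnnt2, were measured and none was at the floor, the lowest signal allowed (4.54). Such markers cannot tell the left ventricle from other heart muscle, so that part of the label was not tested.

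The adult heart draws most of its energy from long-chain fatty acids. These are freed from lipoproteins by lipoprotein lipase, taken up and bound in the cytosol, activated to acyl-CoA and carried into mitochondria as carnitine esters. There the beta-oxidation spiral shortens them through dehydrogenation, hydration, a further dehydrogenation and thiolysis, and malonyl-CoA brakes their entry. Loss of this programme is a textbook feature of the hypertrophied and failing heart, and the nuclear receptor PPAR-alpha with its partners RXR and PGC-1 is its best known driver.

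Trimmed mean signals of the 12 arrays lay between 105 and 131 before scaling. On the sham array at 1 day 21 of the 31 genes were above all 5 other controls (23.6% of all genes tested were) and 1 was below (21.4%). The median of the 31 genes there was 0.21 higher, on the log2 scale, than the mean of those 5 controls (0.014 for all genes). The TAC 1 day pair is therefore given against its own sham and against the 5 other controls. Between controls of the same time, of which there were 4 pairs, the median of the 31 genes differed by up to 0.14 on the log2 scale.

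All 31 genes had a mean log2 ratio of procedure to control below 0 over the 6 pairs, from -0.85 for Dgat2 to -0.16 for Lpl, and the median was -0.41, beside -0.0038 for all genes tested. In limma's paired fit 25 of the 31 fell and 0 rose (Benjamini-Hochberg adjusted p under 0.05 over all 11624 genes), where 5.7% of all genes fell and 5.16% rose. Without scaling of the arrays 13 of the 31 fell, while over all genes 692 rose and 108 fell in place of 600 and 662. In bulk tissue, fewer cells of a type and less RNA per cell cannot be told apart. The count was 6 without the TAC 1 week pair, 8 without TAC 1 month, 9 without MI 1 week and 8 without MI 1 month, in each case with all 31 means below 0. Without the Ang II pair the count was 29. It was 4 without the intensity trend, 11 without the pair as a block and 0 without the filter on dim genes (29 at an unadjusted p under 0.05 in limma).

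**Figure D1:**
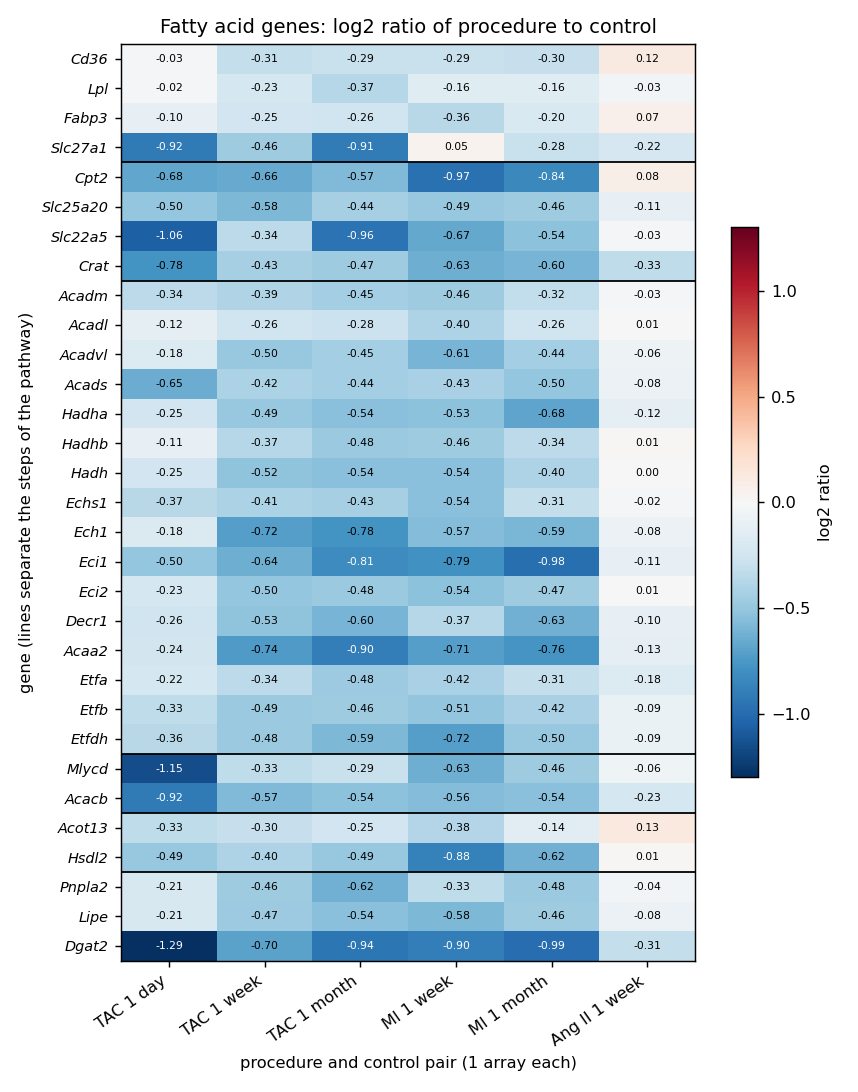
Log2 ratio of procedure to control for the 31 genes (rows, in the order of the pathway, with lines between its steps) in the 6 pairs (columns, 1 array against 1 array). The 5 TAC and MI columns are below 0 for 30 of the 31 genes, the exception being Slc27a1 in MI 1 week, and the Ang II column lies between -0.33 and 0.13.

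In single pairs there is no test, so sizes are given. A gene was counted as lower in a pair when its signal was down at least 1.3-fold and lay below all 6 controls. By this rule 10 of 31 genes were lower in TAC 1 day (24.5% of all genes), 22 in TAC 1 week (7.6%), 25 in TAC 1 month (7.5%), 25 in MI 1 week (13.6%), 21 in MI 1 month (7.27%) and 0 with Ang II (4.08%). The median log2 ratio was -0.33 in TAC 1 day, -0.46 in TAC 1 week, -0.48 in TAC 1 month, -0.54 in MI 1 week, -0.46 in MI 1 month and -0.063 with Ang II. At 1 week and 1 month after TAC or MI the median gene was thus at 68.9% to 72.6% of its control. All genes tested had medians from -0.074 (TAC 1 day) to 0.0090 (MI 1 month). By the matching upward rule 0 of the 31 were higher in any pair, beside 16.4%, 10.9%, 9.65%, 16.7%, 10.4% and 4.75% of all genes in the same order. With a limit of 2-fold, Slc22a5, Mlycd and Dgat2 were lower in TAC 1 day (3 of 31, 7.07% of all genes), and 0 of 31 were lower in the other pairs (0.972%, 1.42%, 1.53%, 0.877% and 1.02%). Of the 31 genes, 30 were lower than their control in all 5 TAC and MI pairs, as were 15.9% of all genes, and 22 were lower in all 6 pairs (10.7%). On at least 5 of the 6 procedure arrays 16 genes lay below every control (6.77%).

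None of the 4 uptake genes passed the test over the 6 pairs, and their median of -0.18 was the nearest to 0 of any step. With the mean of all probe sets 3 of them did pass, Cd36 at -0.32 (adjusted p = 0.0472), Lpl at -0.27 (adjusted p = 0.0369) and Slc27a1 at -0.58 (adjusted p = 0.0344). Fabp3, the fatty acid binding protein of heart cytosol, had signals of 13252, 10820 and 11086 in TAC at 1 day, 1 week and 1 month against 14235, 12825 and 13301 in the shams, 10969 and 12510 in MI at 1 week and 1 month against 14056 and 14330, and 14941 with Ang II against 14245. It was below all controls on 4 arrays and above all of them with Ang II. Its mean log2 ratio was -0.18 ± 0.063 (standard error of the fit, n = 6 pairs; adjusted p = 0.0889). Lpl, lipoprotein lipase, was at -0.16 ± 0.060 (adjusted p = 0.109) and Cd36, the fatty acid translocase, at -0.18 ± 0.072 (adjusted p = 0.121). On their brightest probe sets Lpl and Cd36 were within 0.03 of their sham on the log2 scale in the TAC 1 day pair. At 1 month after TAC these probe sets were at -0.37 and -0.29. Dimmer probe sets of the same genes gave lower means, -0.38 for Lpl and -0.26 and -0.51 for Cd36. In TAC 1 day they were at -0.55 for Lpl and -0.13 and -0.60 for Cd36, so the probe sets disagree on this pair.

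Slc27a1, the transport protein FATP1, differed from the other uptake genes. Its signals were 147, 180 and 147 after TAC at 1 day, 1 week and 1 month against 278, 248 and 276 in the shams, 200 and 161 after MI at 1 week and 1 month against 194 and 196, and 237 with Ang II against 276. All 3 TAC arrays lay below every control, whereas the MI 1 week array lay within the control range, which for this gene reached from 194 to 278. A second probe set of the same brightness gave log2 ratios of -0.18 at 1 week and -0.58 at 1 month after MI and -0.62 with Ang II, where the first gave 0.05, -0.28 and -0.22, so the probe sets disagree on the size of the fall outside TAC. In the fit with separate effects for each model it fell in TAC by 0.76 ± 0.15 (n = 3 pairs; adjusted p = 0.0465) and was at -0.12 ± 0.18 in MI (n = 2 pairs; adjusted p = 0.799). The difference between TAC and MI, -0.64 ± 0.24, did not pass (adjusted p = 0.983). Over the 6 pairs it had a mean of -0.46 ± 0.13 (adjusted p = 0.0561).

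All 4 measured genes of the carnitine shuttle fell in the main fit. With the mean of all probe sets Cpt2 (adjusted p = 0.143) and Slc22a5 (adjusted p = 0.0502) did not pass in limma. Cpt2, which rebuilds acyl-CoA on the inner mitochondrial membrane, had signals of 1726, 1312 and 1265 after TAC at 1 day, 1 week and 1 month against 2760, 2070 and 1879 in the shams. After MI its signals were 987 and 1022 at 1 week and 1 month against 1930 and 1830, and with Ang II 2401 against 2272. Every TAC and MI array was below all 6 controls and the Ang II array was inside their range. Cpt2 fell by 0.61 ± 0.12 on the log2 scale over the 6 pairs (adjusted p = 0.0162) and by 0.90 ± 0.10 in MI (n = 2 pairs; adjusted p = 0.0151). Crat, the carnitine acetyltransferase, had signals of 945, 838 and 808 after TAC at 1 day, 1 week and 1 month against 1617, 1130 and 1115, 749 and 767 after MI at 1 week and 1 month against 1160 and 1164, and 1107 with Ang II against 1390. Crat and Etfa were the 2 genes of the list with all 6 procedure arrays below all 6 controls, a pattern that 1.37% of all genes had. Crat fell by 0.54 ± 0.074 (adjusted p = 0.00561). Dimmer Crat probe sets, with mean signals of 248 and 55.4, had mean log2 ratios of -0.58 and -0.35 but were less even. The former was at -0.02 in TAC 1 week and the latter at 0.18 in MI 1 week.

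Slc22a5, which carries carnitine into the cell, had signals of 153, 205 and 142 after TAC at 1 day, 1 week and 1 month against 318, 259 and 277. Its signals were 172 and 177 after MI at 1 week and 1 month against 273 and 257, and 292 with Ang II against 298. The 5 TAC and MI arrays were below every control, and Slc22a5 fell by 0.60 ± 0.13 (adjusted p = 0.0249). A second, dimmer probe set (mean signal 82.6) gave log2 ratios of -0.04 and -0.05 in TAC at 1 week and 1 month. The first gave -0.34 and -0.96 there, so the probe sets disagree on the later TAC pairs. In TAC 1 day, MI 1 week and MI 1 month the second gave -0.73, -1.07 and -0.61. Slc25a20, the translocase that exchanges acylcarnitine for carnitine across the inner membrane, was even across the pairs, with log2 ratios from -0.58 to -0.44 in the 5 TAC and MI pairs and -0.11 with Ang II. Slc25a20 fell by 0.43 ± 0.073 (adjusted p = 0.0106).

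**Figure D2:**
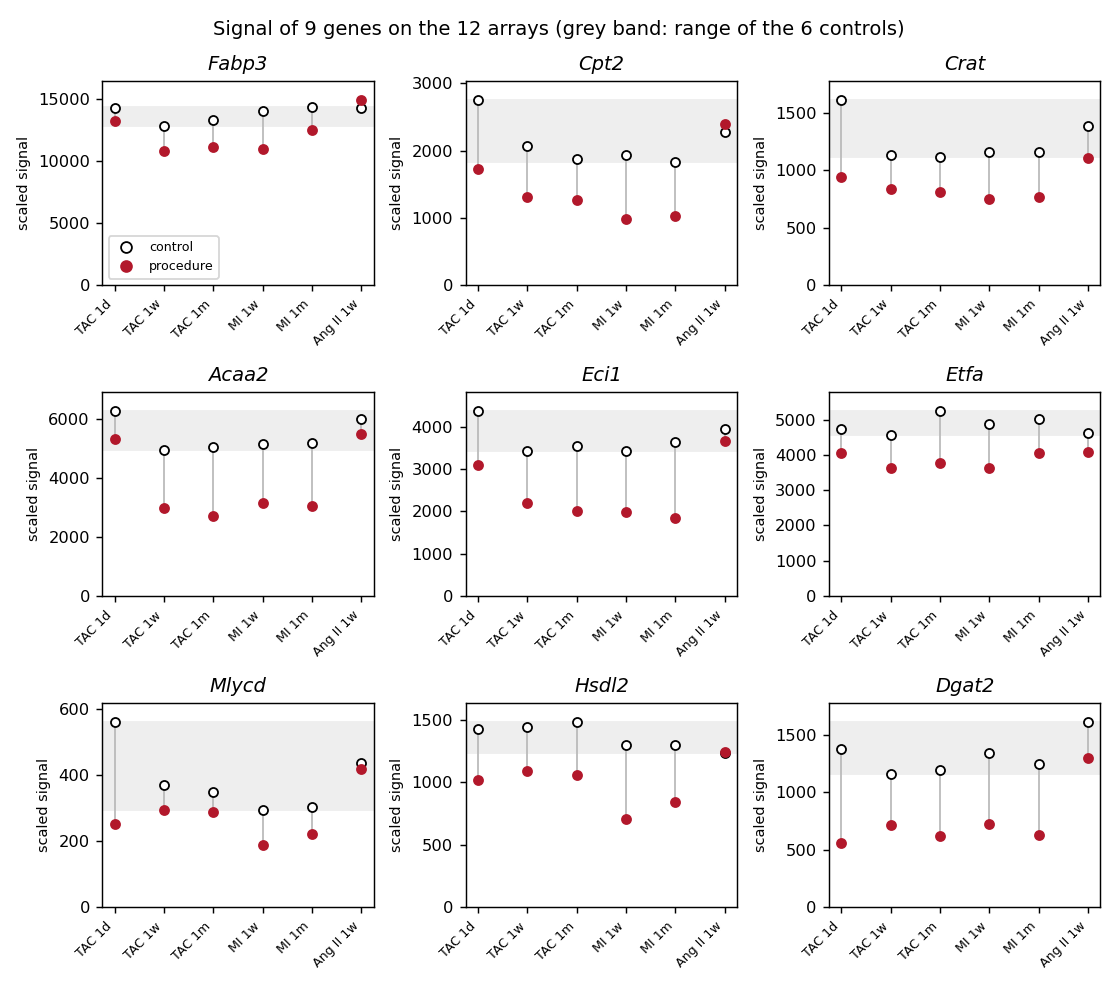
Scaled signal (linear, from 0) of 9 genes on each of the 12 arrays, with open circles for controls, red circles for procedures, a line joining each pair and a grey band over the range of the 6 controls. Crat and Etfa lie below the band on all 6 procedure arrays, whereas Fabp3, Cpt2 and, by a small margin, Hsdl2 are above their own control with Ang II. The sham at 1 day is the highest control for Cpt2, Crat, Acaa2, Eci1 and Mlycd.

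Of the 16 genes of beta-oxidation and its electron transfer, 15 fell, and the remaining gene, Acadl, the long-chain acyl-CoA dehydrogenase, was at -0.22 ± 0.063 (adjusted p = 0.0527). Eci1, Acaa2 and Ech1 had the largest falls among them. Eci1, an enoyl-CoA isomerase needed for unsaturated fatty acids, had signals of 3087, 2199 and 2016 after TAC at 1 day, 1 week and 1 month against 4373, 3424 and 3545. Its signals were 1982 and 1842 after MI at 1 week and 1 month against 3423 and 3640, and 3650 with Ang II against 3939. The 5 TAC and MI arrays were below all controls, and in MI 1 month Eci1 was at 50.6% of its sham. It fell by 0.64 ± 0.10 over the 6 pairs (adjusted p = 0.00906), by 0.65 ± 0.093 in TAC (adjusted p = 0.0215) and by 0.89 ± 0.11 in MI (adjusted p = 0.0197).

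Acaa2, the thiolase that releases acetyl-CoA, had signals of 5328, 2983 and 2715 after TAC at 1 day, 1 week and 1 month against 6290, 4965 and 5049. After MI at 1 week and 1 month its signals were 3158 and 3068 against 5170 and 5205, and with Ang II 5493 against 6000. The 4 later TAC and MI arrays were well below every control, and the TAC 1 day and Ang II arrays lay inside the control range. Acaa2 fell by 0.58 ± 0.10 (adjusted p = 0.0126). Ech1, a dienoyl-CoA isomerase, had a similar split of arrays, with 8559, 5152 and 4877 after TAC at 1 day, 1 week and 1 month against 9719, 8490 and 8366, 5790 and 5596 after MI at 1 week and 1 month against 8575 and 8422, and 8762 with Ang II against 9269. Ech1 fell by 0.49 ± 0.095 (adjusted p = 0.0168), and Decr1, the dienoyl-CoA reductase, by 0.41 ± 0.080 (adjusted p = 0.0159).

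The dehydrogenases, hydratase and trifunctional protein of the spiral fell by 0.29 to 0.44. Among the acyl-CoA dehydrogenases, Acads (short chain) fell by 0.42 ± 0.079, Acadvl (very long chain) by 0.37 ± 0.077 and Acadm (medium chain) by 0.33 ± 0.066. Hadha and Hadhb, the subunits of the trifunctional protein that performs the later steps on long chains, fell by 0.44 ± 0.078 and 0.29 ± 0.074. Hadh, the dehydrogenase for shorter hydroxyacyl-CoA, fell by 0.38 ± 0.078, Echs1, the enoyl-CoA hydratase, by 0.35 ± 0.073, and the isomerase Eci2 by 0.37 ± 0.083. Adjusted p over these 8 genes ran from 0.0126 for Hadha to 0.0385 for Hadhb.

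Etfa, Etfb and Etfdh, which pass electrons from the dehydrogenases to ubiquinone, fell together by 0.33 ± 0.059, 0.38 ± 0.067 and 0.45 ± 0.080 (adjusted p = 0.0135, 0.0123 and 0.0123). Etfa had signals of 4048, 3616 and 3781 after TAC at 1 day, 1 week and 1 month against 4731, 4570 and 5255. Its signals were 3643 and 4042 after MI at 1 week and 1 month against 4875 and 5014, and 4072 with Ang II against 4619. No procedure array overlapped the controls for this gene.

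Promoters were searched because PPAR and the oestrogen-related receptors are the textbook regulators of these genes. RefSeq promoters (GRCm38.p6) were found for 26 of the 33 symbols, 30 promoters in all, and the 250 bases before each start were read on both strands. The direct repeat bound by PPAR and RXR, which is AGGTCA, any base N and AGGTCA again, was in 0 of the 30 without mismatch (0.0335% of 32841 promoters) and in 3 with up to 2 mismatches (3.24%). The element bound by oestrogen-related receptors, TCAAGGTCA, was in 0 without mismatch (0.387%) and in 1 with up to 1 mismatch (6.35%). Both motifs can overlap in AGGTCA, but no promoter below holds both. The 4 promoters with a match are shown 5′ to 3′ on the strand of the gene, with the match in capitals: Cd36 at chr5:17835897-17836146 (minus strand, repeat 63 bases before the start), Echs1 at chr7:140116422-140116671 (minus, repeat at 83), Etfa at chr9:55512244-55512493 (minus, repeat at 77) and Ech1 at chr7:28825088-28825337 (plus, oestrogen-related receptor element at 62). A match describes letters and not a bound site.
Cd36: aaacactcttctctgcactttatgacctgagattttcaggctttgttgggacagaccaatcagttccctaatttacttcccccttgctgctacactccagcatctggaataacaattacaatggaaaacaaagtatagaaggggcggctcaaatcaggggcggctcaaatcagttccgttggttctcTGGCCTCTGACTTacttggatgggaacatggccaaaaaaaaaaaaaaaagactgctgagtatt
Echs1: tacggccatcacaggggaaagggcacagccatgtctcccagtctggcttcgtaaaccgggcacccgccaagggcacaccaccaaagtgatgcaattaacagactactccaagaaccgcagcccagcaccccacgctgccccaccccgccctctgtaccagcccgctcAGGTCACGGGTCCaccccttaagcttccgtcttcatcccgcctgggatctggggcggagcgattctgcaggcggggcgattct
Etfa: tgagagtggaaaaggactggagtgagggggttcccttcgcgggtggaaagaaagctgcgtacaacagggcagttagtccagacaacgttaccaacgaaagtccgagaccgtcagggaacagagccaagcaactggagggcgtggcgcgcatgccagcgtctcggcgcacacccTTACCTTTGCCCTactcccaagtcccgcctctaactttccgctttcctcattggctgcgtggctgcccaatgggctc
Ech1: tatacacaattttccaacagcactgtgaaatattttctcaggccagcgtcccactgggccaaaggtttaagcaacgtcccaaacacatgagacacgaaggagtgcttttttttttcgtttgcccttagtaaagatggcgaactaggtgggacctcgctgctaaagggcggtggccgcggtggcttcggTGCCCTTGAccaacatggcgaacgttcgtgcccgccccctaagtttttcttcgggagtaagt

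**Figure D3:**
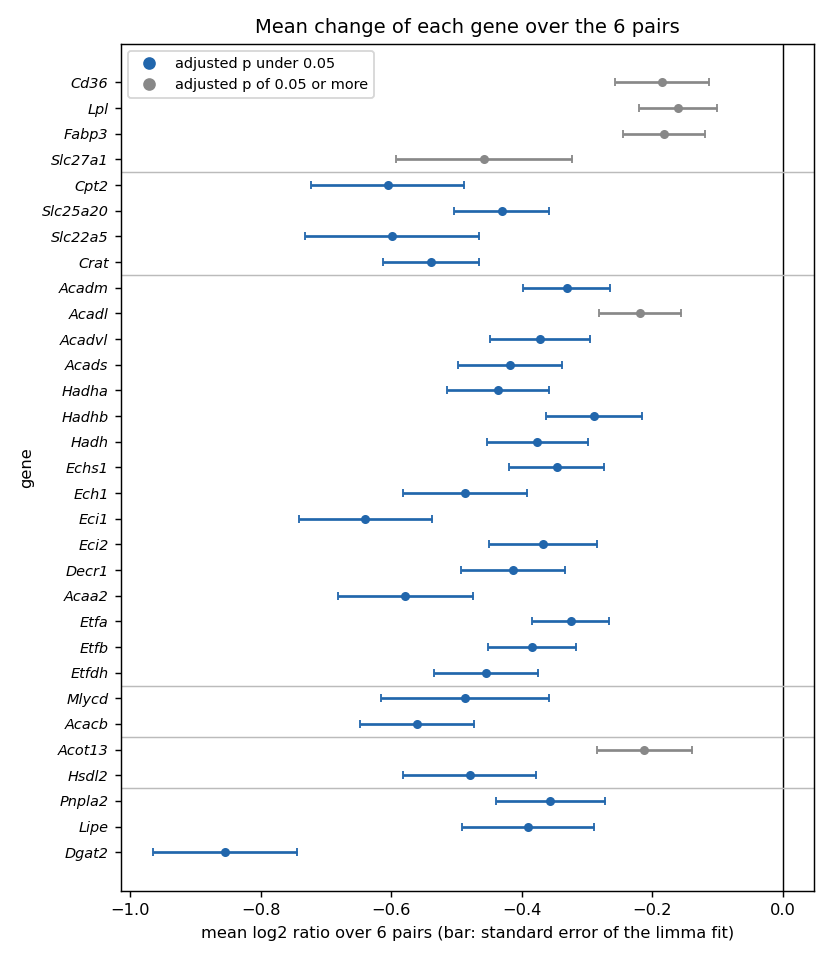
Mean log2 ratio of procedure to control over the 6 pairs for each of the 31 genes, with the standard error of limma's fit as the bar. Blue points have an adjusted p under 0.05 over all genes tested, and the 6 grey points (Cd36, Lpl, Fabp3, Slc27a1, Acadl and Acot13) do not.

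The genes that set the malonyl-CoA brake both fell in the main fit. With the mean of all probe sets neither passed in limma (Mlycd adjusted p = 0.0561, Acacb adjusted p = 0.384). Mlycd has only 1 probe set, so its own mean was the same there and only its adjusted p moved. The second probe set of Acacb was dim, at the floor on 4 arrays. Mlycd, malonyl-CoA decarboxylase, had signals of 252, 295 and 287 after TAC at 1 day, 1 week and 1 month against 561, 371 and 350, 189 and 221 after MI at 1 week and 1 month against 293 and 304, and 418 with Ang II against 436. Its controls ranged from 293 to 561 and those of 1 time differed by up to 0.57 on the log2 scale, the most of any gene in the list. Mlycd fell by 0.49 ± 0.13 (adjusted p = 0.0412). Acacb, the mitochondrial acetyl-CoA carboxylase that makes malonyl-CoA, had signals of 574, 551 and 622 after TAC at 1 day, 1 week and 1 month against 1087, 818 and 901, 515 and 513 after MI at 1 week and 1 month against 760 and 748, and 814 with Ang II against 956. It was below all controls on every TAC and MI array and fell by 0.56 ± 0.087 (adjusted p = 0.00805). The enzyme that makes malonyl-CoA and the one that removes it were thus both below their own control in all 6 pairs. By the 1.3-fold rule, however, Acacb but not Mlycd was lower in TAC 1 week and TAC 1 month.

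Triglyceride genes included the largest fall of the list. Dgat2, which adds the last acyl chain to triglyceride, had signals of 562, 712 and 620 after TAC at 1 day, 1 week and 1 month against 1376, 1157 and 1190, 721 and 630 after MI at 1 week and 1 month against 1343 and 1249, and 1301 with Ang II against 1612. The 5 TAC and MI arrays, between 562 and 721, were all below the lowest control, 1157. Dgat2 fell by 0.85 ± 0.11 over the 6 pairs (adjusted p = 0.00437), to 55.3% of control, by 0.98 ± 0.12 in TAC (adjusted p = 0.0148) and by 0.94 ± 0.15 in MI (adjusted p = 0.0395). The lipases fell less, Pnpla2 (adipose triglyceride lipase) by 0.36 ± 0.083 (adjusted p = 0.0286) and Lipe (hormone-sensitive lipase) by 0.39 ± 0.10 (adjusted p = 0.0389). Lipe was dim, between 113 and 185 on all arrays. A second, dim probe set (mean signal 7.22, at the floor on 6 arrays) had a mean log2 ratio of 0.27, and with the mean of both Lipe was at -0.059 (adjusted p = 0.87). Pnpla2, whose second probe set was also dim (mean signal 15.7), was at -0.25 with the mean of both (adjusted p = 0.388).

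Of the other members, Hsdl2, a hydroxysteroid dehydrogenase-like protein, had signals of 1016, 1089 and 1055 after TAC at 1 day, 1 week and 1 month against 1429, 1440 and 1484, 704 and 841 after MI at 1 week and 1 month against 1296 and 1297, and 1243 with Ang II against 1233. The MI arrays were the lowest. Hsdl2 fell by 0.48 ± 0.10 (adjusted p = 0.0213) and in MI by 0.75 ± 0.12 (adjusted p = 0.0356), and the TAC minus MI difference of 0.29 ± 0.15 did not pass (adjusted p = 0.983). Acot13, a mitochondrial acyl-CoA thioesterase, was at -0.21 ± 0.073 (adjusted p = 0.0903).

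A further fit gave each model an effect of its own, from 3 pairs in TAC, 2 in MI and 1 for Ang II. In TAC 13 of 31 genes fell (1.26% of all genes), and in MI 5 of 31 fell (0.155%), namely Cpt2, Eci1, Etfdh, Hsdl2 and Dgat2, and 0 rose in either (1.08% and 0.826% of all genes rose). Of these 5 genes, Cpt2, Eci1, Etfdh and Dgat2 were also among the 13 of TAC. Both counts were 0 in limma without scaling of the arrays, without the filter on dim genes or without the intensity trend. For the TAC minus MI difference limma called 0 of 31 genes and 0% of all genes in either direction. At an unadjusted p under 0.05 it called 1 of the 31, Slc27a1, as lower in TAC (2.99% of all genes) and 0 as higher (1.55%). A difference that does not pass does not show that the models act alike: the standard error of the difference was 0.12 for Acadm and 0.28 for Mlycd.

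With Ang II the genes stayed near their control, between -0.33 for Crat and 0.13 for Acot13. Of the 31, 23 were lower and 8 higher, where 51.4% of all genes were lower. The Ang II effect itself passed for 0 of 31 genes and 0% of all genes in limma, and at an unadjusted p under 0.05 also for 0 of the 31 (1.02% of all genes lower, 1.43% higher). The difference between Ang II and the mean of TAC and MI was tested with limma, the lone Ang II pair being assumed to vary like the others. It called 0 of 31 genes and 0% of all genes in either direction after adjustment. At an unadjusted p under 0.05, 15 of the 31 were higher with Ang II (1.95% of all genes) and 0 were lower (2.56%). The differences were 0.85 ± 0.16 for Cpt2, 0.66 ± 0.18 for Eci1, 0.62 ± 0.18 for Hsdl2 and 0.65 ± 0.24 for Dgat2 (adjusted p = 0.975 for each). Ang II was measured only at 1 week. Fibroblast markers had a median log2 ratio of 0.45 in this pair.

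After TAC the order of the genes differed between 1 day and the later times. At 1 day the deepest log2 ratios were those of Dgat2 (-1.29), Mlycd (-1.15), Slc22a5 (-1.06), Slc27a1 (-0.92), Acacb (-0.92) and Crat (-0.78). The 16 beta-oxidation genes had a median of -0.25 at 1 day, -0.49 at 1 week and -0.48 at 1 month. With scaled signals and the brightest probe sets 15 of them were lower later than at 1 day, Acads being the exception. A second Hadhb probe set (mean signal 4265) was instead lowest at 1 day, with -0.43, -0.07 and -0.40 at 1 day, 1 week and 1 month. The share of all genes lower later was not counted. The course also depends on the scaling. With signals as deposited the median of the 31 genes was lowest at 1 day (-0.48), with -0.25 at 1 week and -0.17 at 1 month. Ech1 and Acaa2 were then higher at 1 day by only 0.15 and 0.16. The carnitine shuttle median, with scaled signals, was -0.73, -0.51 and -0.52 at 1 day, 1 week and 1 month. Because the sham at 1 day was high for many of the genes, these ratios move with the control: against the mean of the 5 other controls the TAC 1 day array had a median of -0.17, with 24 of 31 genes lower (-0.076 for all genes). There Dgat2 was at -1.21, Slc22a5 at -0.83, Slc27a1 at -0.68, Acacb at -0.54 and Mlycd at -0.46, whereas Acaa2 was at 0.017, Ech1 at -0.0099, Slc25a20 at 0.015 and Pnpla2 at 0.19.

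**Figure D4:**
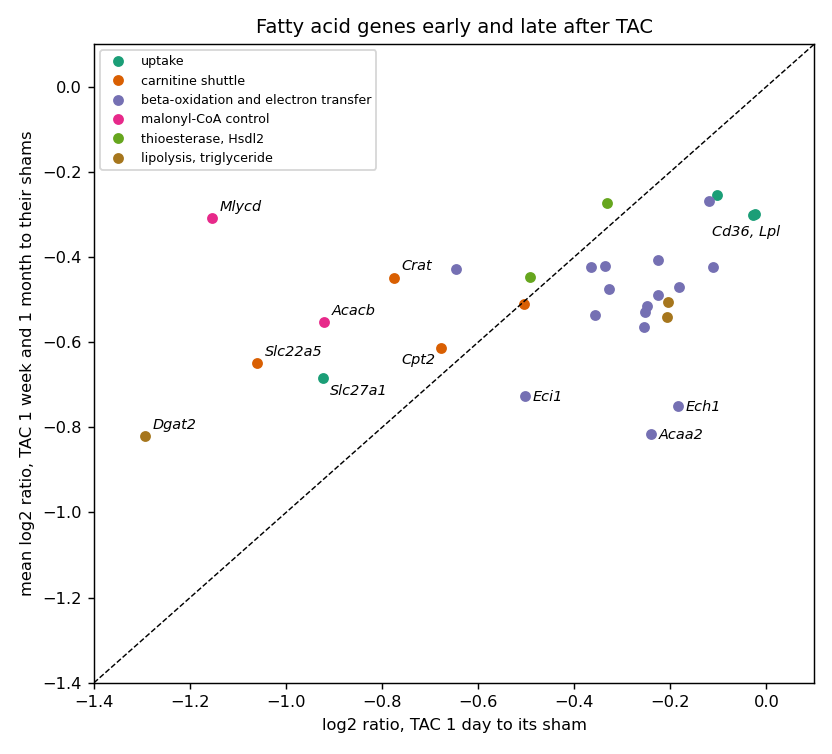
Log2 ratio to sham at 1 day after TAC (horizontal axis) against the mean of the log2 ratios at 1 week and 1 month (vertical axis) for the 31 genes, coloured by step, with the line of equality dashed. With scaled signals, beta-oxidation genes such as Acaa2 and Ech1 lie below the line (lower at the later times), and Mlycd, Acacb, Slc22a5 and Dgat2 lie above it (lower at 1 day).

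The difference between TAC 1 day and later TAC was tested with limma after these values had been seen, with 2 residual degrees of freedom and the lone 1 day pair assumed to vary like the others. These differences take in the sham at 1 day, which for Mlycd was 0.69 above the 5 other controls on the log2 scale. Against the mean of all 6 controls Mlycd was at -0.58, -0.35 and -0.39 at 1 day, 1 week and 1 month after TAC, so most of its difference was not seen there. Acaa2 was at -0.026, -0.86 and -0.999 and Ech1 at -0.039, -0.77 and -0.85, a gap at least as large as against their own shams. In the fit against own shams Mlycd was lower at 1 day by 0.84 ± 0.20 on the log2 scale (adjusted p = 0.041), 1 of 31 genes where 4.05% of all genes were lower. Ech1 and Acaa2 were higher at 1 day than later, by 0.57 ± 0.12 (adjusted p = 0.0238) and 0.58 ± 0.13 (adjusted p = 0.034), 2 of 31 genes where 2.52% of all genes were higher. The calls for Mlycd and Acaa2 were lost with quantile normalization (adjusted p = 0.0707 and 0.0789) and with the mean of all probe sets (0.0751 and 0.182). Mlycd has only 1 probe set, and its difference was the same under the latter. The call for Ech1 was lost with quantile normalization (0.145). All 3 calls were lost without the filter on dim genes (adjusted p from 0.18 to 0.213) and without the intensity trend (0.188 to 0.262). Without scaling of the arrays Mlycd passed (adjusted p = 0.00411) and Ech1 (0.445) and Acaa2 (0.452) did not.

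Markers of the cardiomyocyte and of other cells also differed from control in these pairs. Of 14 cardiomyocyte markers 3 fell (Ryr2, Pln and Tcap) and 0 rose, with a median of -0.15. Their pair medians were -0.045 in TAC 1 day, -0.27 in TAC 1 week, -0.30 in TAC 1 month, -0.22 in MI 1 week, -0.11 in MI 1 month and -0.015 with Ang II. The summed marker signal ranged from 141340 to 155900 on controls and from 121193 to 150520 on procedure arrays. In each pair the median of the fatty acid genes lay below that of the cardiomyocyte markers. These lists differ in brightness. Mean signals ran from 3651 (Ryr2) to 13491 (Myh6) for the markers and from 144 (Lipe) to 12972 (Fabp3) for the fatty acid genes. The part of brightness in this gap was not tested. Fibroblast markers rose in 7 of 10 genes and fell in 0, with pair medians from 0.40 to 1.18 and summed signals of 12422 to 16390 on controls and 15992 to 41984 on procedure arrays. Macrophage markers rose in 6 of 10 genes and fell in 0, with a lowest pair median of 0.092 (Ang II), a highest of 1.18 (MI 1 week) and summed signals of 3535 to 6053 on controls and 4006 to 12640.5 on procedure arrays. No marker of these 3 lists was at the floor on all arrays. The part of these cells in the fall of the fatty acid genes was not tested.

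**Figure D5:**
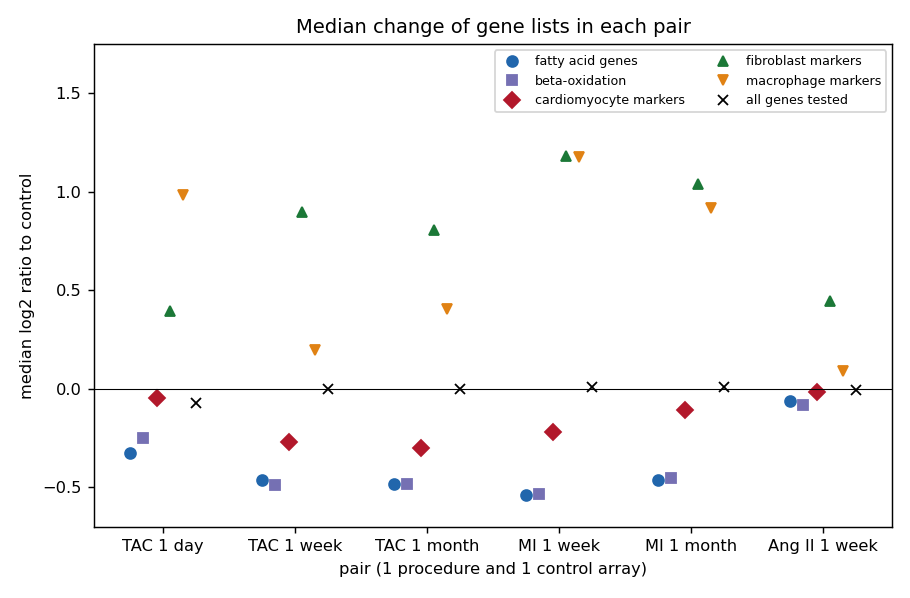
Median log2 ratio to control of the 31 fatty acid genes, the 16 beta-oxidation genes, 14 cardiomyocyte, 10 fibroblast and 10 macrophage markers and all 11624 genes in each of the 6 pairs. The fatty acid median is below the cardiomyocyte median in every pair, by the smallest margin with Ang II (-0.063 against -0.015). The fatty acid and cardiomyocyte lists differ in brightness.

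Fat cells also express Lpl, Cd36, Pnpla2, Lipe and Dgat2. Of 8 adipocyte markers 3 could be tested, and none passed. Adipoq, the adiponectin gene, had a signal of 102 in MI 1 month against 7.37 in its sham, and between 8.13 and 29.9 on the other 10 arrays. Car3 had 630 in MI 1 month against 36.5, 164 in MI 1 week against 30.4, and 144 and 150.2 in TAC at 1 week and 1 month against 15.1 and 38.7, but 15.4 in TAC 1 day against 52.4 and 36.4 with Ang II against 53.6. On the MI 1 month array Lipe (115 against 158), Pnpla2 (724 against 1009) and Dgat2 (630 against 1249) were lower than in the sham. How much fat cells contributed to these values was not tested. Of 8 endothelial markers 0 rose and 0 fell, with a median of 0.072, and of 6 smooth muscle markers 2 rose and 0 fell, with a median of -0.014. In the same order the summed signals were 6494 to 8300.2, 2288 to 3503 and 4287 to 5714 on controls and 6325 to 8321 (Fabp4 making up most of it), 2745 to 2977 and 4057 to 5540.3 on procedure arrays.

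Brightness went with the size of the ratio. The 8 genes with a mean signal above 5000 (Cd36, Lpl, Fabp3, Acadm, Acadl, Hadhb, Hadh and Ech1) had a median of -0.25, and 4 of the 8 fell. Over all 152 genes above that signal the median was -0.20 and 59 fell. The 23 dimmer members had a median of -0.44, where the other 11472 genes had one near 0, and 21 of the 23 fell. Across the 31 genes, which share the arrays, Spearman's rho between mean log2 signal and mean log2 ratio was 0.57 (-0.19 over all 11624 genes). The highest signal on any array was 15274 after scaling. Of the 31 genes 19 had further probe sets, 24 in all. The 20 of these above the limit for dim genes all had a mean log2 ratio below 0, with a median of -0.51, though not each was below 0 in every pair. The part of brightness in the smaller changes of the uptake genes was not tested.

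Related genes outside the list were read from 5 further lists, whose counts stand beside the 5.7% of all genes that fell and the 5.16% that rose. Of 18 regulators 6 fell and 0 rose: Rxrg, a partner receptor, by 0.79 ± 0.18 (adjusted p = 0.0254), Ppara by 0.72 ± 0.14 (adjusted p = 0.0161) and Klf15 by 0.47 ± 0.13 (adjusted p = 0.0469) had the largest falls. Their log2 ratios in TAC 1 day were -1.88, -1.55 and -0.63, and the median of the 18 regulators was -0.87 in TAC 1 day against -0.38 to -0.12 in the other pairs. Of 12 tested peroxisomal genes 6 fell and 0 rose, led by Ehhadh (-0.81 ± 0.21, adjusted p = 0.0378), the bifunctional enzyme of peroxisomal oxidation, Amacr (-0.53) and Abcd3 (-0.40).

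Of 34 other acyl-CoA genes 12 fell and 1 rose. The thioesterases Acot1 and Acot2 fell by 1.14 ± 0.22 and 0.65 ± 0.15 (adjusted p = 0.0161 and 0.0268) and Acad11 by 0.64 ± 0.13 (adjusted p = 0.0205). Acsl5, a further acyl-CoA synthetase, rose by 0.37 ± 0.084 (adjusted p = 0.0264). Of 19 lipid droplet and triglyceride genes 4 fell and 0 rose, led by G0s2, an inhibitor of Pnpla2, which fell by 0.81 ± 0.12 (adjusted p = 0.00733), Fitm2 (-0.61) and Plin5 (-0.60). Of 13 fatty acid synthesis genes 0 fell and 1 rose, the elongase Elovl1 (0.43 ± 0.10, adjusted p = 0.0293), a share near that of all genes, with a list median of 0.29. The medians of the other 4 lists were -0.39, -0.32, -0.24 and -0.20.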

How the data were processed

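The deposited table holds an intensity for each probe set and array, on a linear scale. The submitters' processing notes name GCOS without a version, and how it was set is unknown here. Signals were scaled to a common 2% trimmed mean (factors 0.872 to 1.09), raised to a floor at the 20th percentile (4.54) and taken to log2. Of 45101 probe sets, 34958 carried 1 symbol, 932 several and 9211 were not listed. Each gene was its brightest probe set, and genes above the 40th percentile of mean log2 (signal 18.1) were tested.

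Fits used limma 3.58.1 in R 4.3.3 across all 11624 genes, with an intensity trend, pairs as blocks and Benjamini-Hochberg adjustment at 0.05 (residual degrees of freedom 5 for the mean of 6 pairs, 3 for separate models). Pairing follows the sample titles. The residual holds real differences between procedures as well as noise, and the p-values reflect only how these arrays vary, which may be technical. The fits were also run on simulated data with independent noise and the same effect in every pair. That setting leaves out differences between procedures, so it lends no weight to the p-values here.

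The members and lists were chosen with earlier results of these data known, and every member with a probe set of its own is named. Related genes are named by the rule of up to 3 largest called changes in each direction per list. Alternatives covered scaling, floor, probe set rule, filter, intensity trend, block, control array and each pair left out. The number of arrays limits the precision. Promoters come from RefSeq.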

Additional observations from a re-analysis of the deposited data

How the results depend on the processing

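Every alternative kept all 31 means over the 6 pairs below 0, but the counts of calls moved. The 25 genes called lower became 13 with signals as deposited and 0 without the filter on dim genes (29 at an unadjusted p under 0.05 in limma). They became 4 without the intensity trend and 11 without the pair as a block, and ranged from 6 to 29 with a pair left out. With the mean of all probe sets they became 22: Cd36, Lpl and Slc27a1 were gained, and Cpt2, Slc22a5, Mlycd, Acacb, Pnpla2 and Lipe were lost. Mlycd has only 1 probe set, so its own mean was the same there. The 13 TAC calls became 0 with signals as deposited, without the filter and without the trend, and 4 with the mean of all probe sets, and the 5 MI calls became 0, 0, 0 and 3 in the same order. The main fits were paired, with each procedure and its control as a block. No other pairing was possible because the groups hold 1 array each and share no 2 replicate numbers.

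With signals as deposited the medians of all genes were -0.23 in the TAC 1 day pair, 0.21 and 0.31 in TAC at 1 week and 1 month and 0.16 at 1 week after MI. The list medians were -0.48, -0.25, -0.17 and -0.38 there, and the genes lower in these pairs numbered 16, 5, 6 and 16. Relative to all genes the list medians were -0.25, -0.46, -0.48 and -0.55, which scaling by 1 factor per array cannot change. With quantile normalization they were -0.23, -0.34, -0.45 and -0.37, and 13 genes were lower in TAC 1 week. The TAC 1 day median was -0.18 against the mean of the 6 controls and, in an alternative chosen after seeing the data, -0.17 against the 5 other controls. With a 2-fold limit 3 genes were lower in TAC 1 day and 0 in the other pairs. The 3 calls between TAC 1 day and later TAC became 6 with signals as deposited, 1 with the mean of all probe sets and 0 with quantile normalization, without the filter and without the trend. The cause of these changes was not tested.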
